A study of Mus musculus with 21 samples.

Results

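Transcripts of 42 genes whose products are mostly made by hepatocytes were followed in RNA of mouse gastrocnemius, a hind limb muscle. The genes were 42 of the 40853 genes counted, and every one of the 42 symbols was found. They encode secreted plasma proteins and a few intracellular metabolic enzymes, and they were selected on these same data for standing high together in some of the libraries. Alb, which encodes albumin, served to divide the libraries at 250 CPM (counts per 1000000 counts of the library). The library just above that level held 365 CPM of Alb and the one just under it held 161 CPM. Because the division used Alb, and the genes were selected for following it, values across the division are given as a description, with no test.

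The study asked how a stop in training changes skeletal muscle. The libraries came from female C57BL/6NJ mice, 10 weeks old at the start, 7 from each of 3 groups. The Active group ran on a treadmill in 5 weekly sessions of up to 40 minutes over 6 weeks. The Activity Reduction group followed this program over 4 weeks and was then left untrained during 2 weeks, and the Inactive group was untrained during all 6 weeks. Mice of all 3 groups performed a maximal running test at the end, so the Inactive animals were not entirely without running. Poly(A) RNA was taken from the medial belly of the muscle, with 1 library per mouse. Libraries are called here by their group and replicate number.

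Hepatocytes supply most of the proteins of blood plasma, among them carriers, apolipoproteins, clotting factors and protease inhibitors. Their genes are read at very high rates in the liver under the joint control of a few transcription factors, including those of the HNF1, HNF4, C/EBP and FOXA families, and skeletal muscle fibres are not known as a source of most of them. A subset, the acute-phase proteins, is made in larger amounts by the liver during inflammation. Transferrin, vitronectin and complement C3 are also made by cells outside the liver.

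The libraries held between 38482455 and 59785132 counts. The libraries above 250 CPM of Alb held a median of 47720000 counts and the others a median of 51850000. The summed level of 10 muscle fibre genes, among them Myh4, Atp2a1 and Acta1, lay between 195300 and 230800 CPM. Mylpf, which encodes a myosin light chain of fast fibres, was the exception among the 10 at a mean of 2.68 CPM, and the cause was not tested.

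Promoter sequences are given first for members from different roles that were chosen because they share 1 short motif. An entry in the RefSeq promoter table (build GRCm38.p6) was found for 32 of the 42 genes. The 250 bases upstream of the annotated start are printed 5′ to 3′ on the strand of the gene. Capitals mark the motif GTTAAT, the core of HNF1 sites, or its reverse complement ATTAAC. The stretches are chr5:90460620-90460869 on the plus strand for Alb, chr5:89457899-89458148 on the minus strand for Gc, chr3:83049864-83050113 on the minus strand for Fgb, chr6:71199629-71199878 on the plus strand for Fabp1 and chr12:103738190-103738439 on the minus strand for Serpina1b.
Alb: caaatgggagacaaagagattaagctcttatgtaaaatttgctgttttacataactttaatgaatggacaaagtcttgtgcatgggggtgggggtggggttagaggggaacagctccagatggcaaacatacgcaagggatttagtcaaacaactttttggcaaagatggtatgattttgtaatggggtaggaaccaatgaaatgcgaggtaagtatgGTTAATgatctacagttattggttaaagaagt
Gc: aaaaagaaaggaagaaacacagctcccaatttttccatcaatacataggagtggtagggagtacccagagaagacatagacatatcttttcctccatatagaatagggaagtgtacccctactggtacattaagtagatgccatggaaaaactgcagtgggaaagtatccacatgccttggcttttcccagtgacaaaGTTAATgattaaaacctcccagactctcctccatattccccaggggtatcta
Fgb: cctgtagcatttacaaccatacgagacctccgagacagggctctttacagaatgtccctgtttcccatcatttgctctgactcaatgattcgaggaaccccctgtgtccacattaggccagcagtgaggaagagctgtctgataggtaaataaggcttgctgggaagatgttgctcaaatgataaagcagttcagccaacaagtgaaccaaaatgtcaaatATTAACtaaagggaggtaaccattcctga
Fabp1: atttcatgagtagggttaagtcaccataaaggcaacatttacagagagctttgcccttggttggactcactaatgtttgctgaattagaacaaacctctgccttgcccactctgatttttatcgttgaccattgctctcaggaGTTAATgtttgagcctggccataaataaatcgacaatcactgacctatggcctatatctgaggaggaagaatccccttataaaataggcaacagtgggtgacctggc
Serpina1b: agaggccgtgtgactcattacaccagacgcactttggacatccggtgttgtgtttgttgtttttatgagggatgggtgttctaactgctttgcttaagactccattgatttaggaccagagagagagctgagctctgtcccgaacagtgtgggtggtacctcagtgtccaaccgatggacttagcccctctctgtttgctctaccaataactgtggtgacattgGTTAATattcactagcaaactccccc
The motif began 32 bases before the start in Alb, 52 bases in Gc, 29 bases in Fgb, 107 bases in Fabp1 and 26 bases in Serpina1b. GTTAAT was found on either strand in 12 of the 32 member promoters (37.5%) and in 6.52% of all 27025 promoters of the same length. The 12 include the 5 Serpina1 copies, which share most of their sequence. TTGCNNAA, a C/EBP type motif, was found in 12 of the 32 and in 9.55% of all promoters. Serpina1b, Serpina1d and Serpina1e are among these 12. CAAAGTC, a site of the HNF4 type, was found in 5 of the 32 and 3.8% of all, and TGTTTAC, a forkhead motif, in 3 and 3.09%. TATAAA was found in 7 member promoters and in 13% of all, and GGGCGG, the core of a GC box, in 4 and in 32.9%. All motifs were searched on both strands, none contains another, and they were chosen after matches had been seen. Longer and variant forms of them were also tried and are not reported. A match describes letters in the window and is not a binding site.

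The 42 genes are all protein-coding and lie on 15 chromosomes (GRCm39, GENCODE M39), with several in clusters. The fibrinogen chain genes Fgg, Fga and Fgb lie within 42.1 kb at chr3:82915030-82957170. Apoa1, Apoc3 and Apoa5 lie within 43.3 kb at chr9:46139878-46183217. The 5 Serpina1 copies and Serpina3k lie within 620 kb of chromosome 12. Alb itself lies at chr5:90608647-90624696.

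Alb, the main carrier protein of plasma, had the most counts of the 42 transcripts in every library. In the Active group its level was 718, 365, 814, 976, 798, 93.8 and 118 CPM in replicates 1 to 7. In the Activity Reduction group it was 771, 597, 71.1, 145, 105, 133 and 161 CPM. In the Inactive group it was 1155, 130, 121, 113, 106, 136 and 93.7 CPM. Thus 8 libraries stood above 250 CPM and 13 stood under it, and the highest library of all was Inactive. The 8 were 5 Active, 2 Activity Reduction and 1 Inactive, and the 13 were 2 Active, 5 Activity Reduction and 6 Inactive. The mouse numbers in the labels divided at the same place. The 8 libraries above 250 CPM came from the 8 mice with the lowest numbers. The labels do not say whether the numbers mark a litter, a day or a batch, and the division of the libraries and the order of these numbers cannot be told apart.

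**Figure D1:**
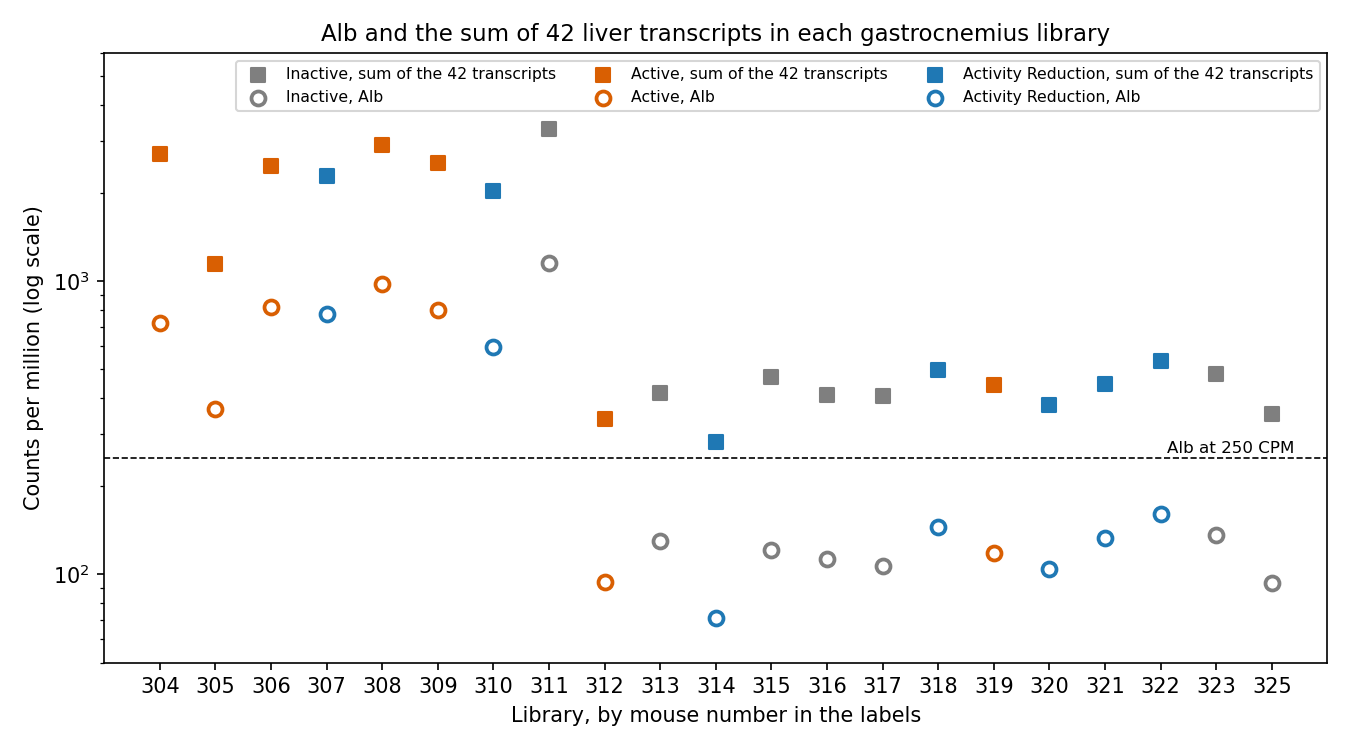
Level of Alb (open circles) and the summed level of the 42 transcripts (squares) in each library, in CPM on a log scale, ordered by the mouse number in the labels and coloured by group. The 8 libraries of the mice with the lowest numbers have 365 to 1155 CPM of Alb, and the other 13 have 71.1 to 161 CPM.

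The summed level of the 42 transcripts was between 1141 and 3309 CPM (median 2496) in the 8 libraries and between 282 and 534 CPM (median 417) in the 13. It made up 0.114 to 0.331% of all counts in the former and 0.0282 to 0.0534% in the latter. Alb alone gave between 25.2 and 34.9% of the sum in every library. In bulk RNA, fewer cells of a type and less RNA per cell cannot be told apart, so the sum says nothing of cell numbers.

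All 42 transcripts had a median at least 2-fold higher in the 8 libraries than in the 13, where 3.62% of the 17290 genes at a mean of 0.1 CPM or more did. For 41 of the 42 the lowest of the 8 libraries was above the highest of the 13, where this held for 2.48% of those genes. Both counts follow from how the genes were selected. The ratio of the medians had a median of 6.13 over the 42 genes, and 37 of them lay between 5 and 8. Active replicate 2 was the lowest of the 8 libraries for 41 of the 42 transcripts, and Inactive replicate 1 was the highest for 20. Among the 13, Activity Reduction replicate 3 was the lowest for 28 transcripts and Activity Reduction replicate 7 the highest for 17.

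**Figure D2:**
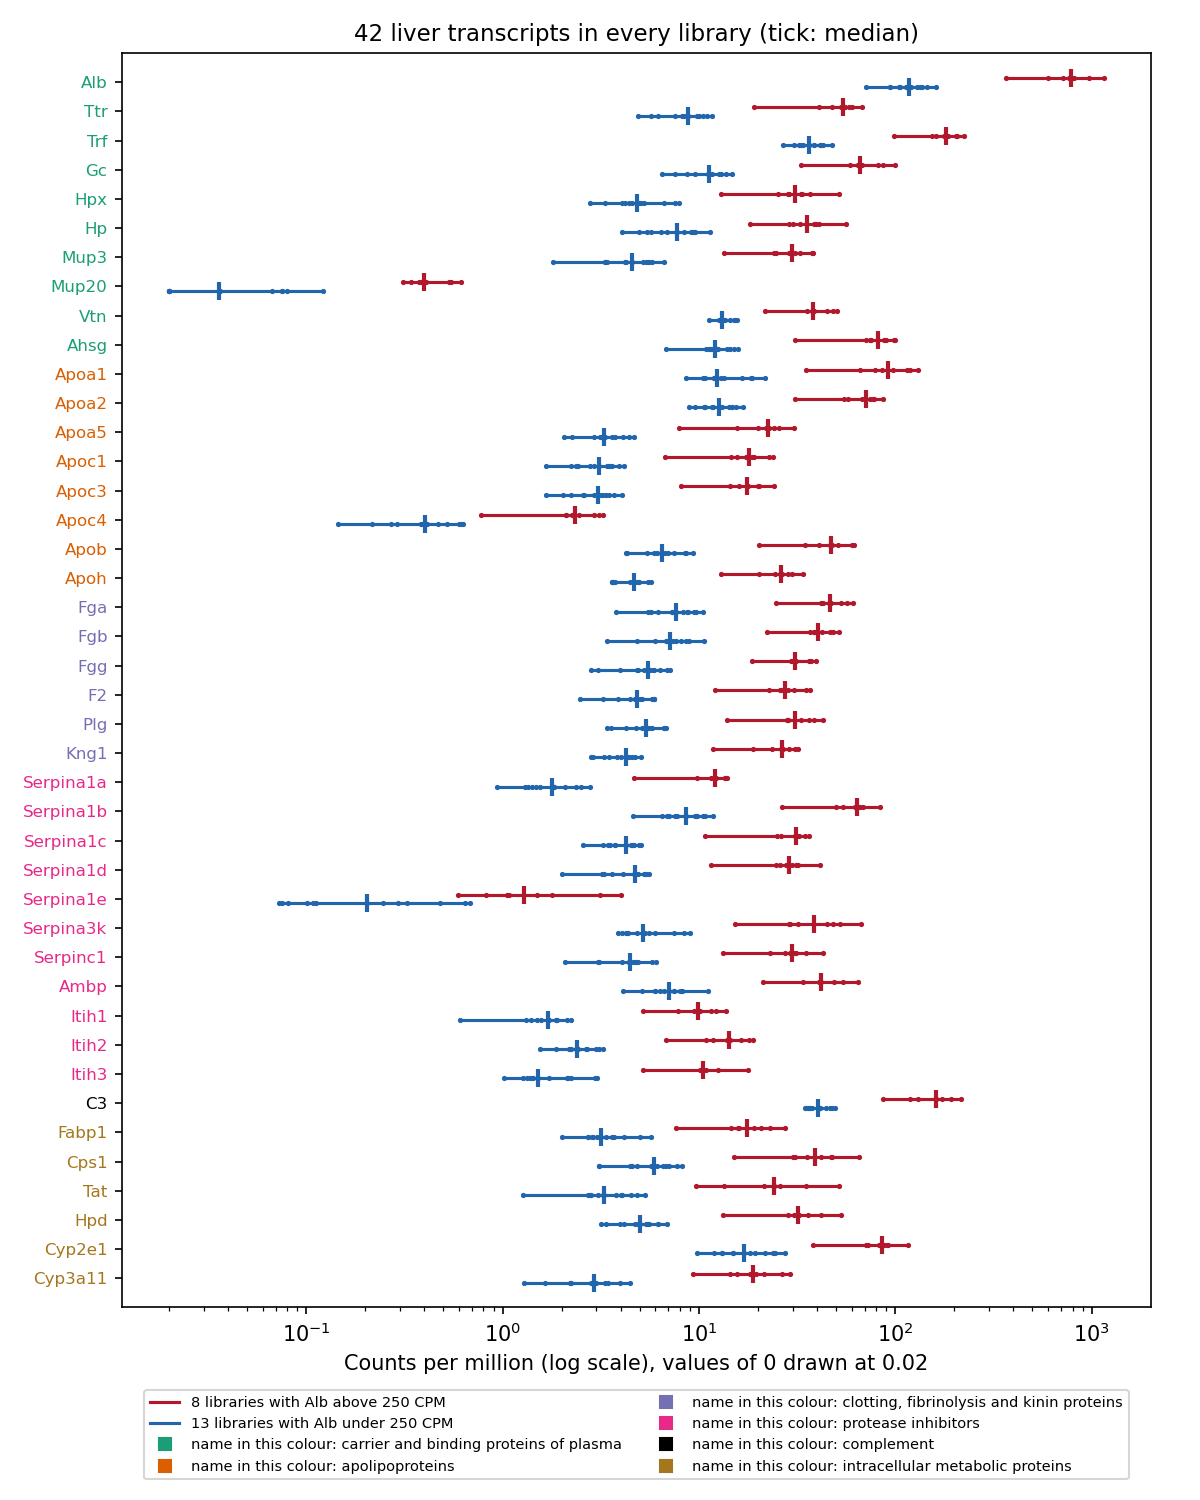
Levels of the 42 transcripts in CPM on a log scale, with 1 point per library, a line over the range and a tick at the median, for the 8 libraries above 250 CPM of Alb (red) and the 13 under it (blue). The lines do not overlap for 41 transcripts and overlap for Serpina1e.

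The carrier and binding proteins of plasma held most of the counts, with a summed median of 1319 CPM in the 8 libraries and 226 CPM in the 13. Trf, which encodes the iron carrier transferrin, was at 98.2, 181 and 223 CPM (lowest, median and highest) in the 8 libraries and at 26.7, 36.4 and 47.8 CPM in the 13. Ahsg, which encodes fetuin-A, an inhibitor of mineral deposition, was at 30.9, 81.9 and 99.7 CPM against 6.78, 12.02 and 15.9 CPM. Both sets were well separated, but the ratio of medians was 6.81 for Ahsg and 4.97 for Trf. Gc, which encodes the vitamin D binding protein, was at 33.1, 66.6 and 99.5 CPM in the 8 libraries and 6.46, 11.2 and 14.8 CPM in the 13. Ttr, which encodes transthyretin, the carrier of thyroxine and of retinol binding protein, was at 19.1, 54.3 and 67.6 CPM against 4.91, 8.77 and 11.7 CPM. These 2 carriers were close to Alb in their ratios, at 5.92 for Gc and 6.19 for Ttr, where Alb had 6.64.

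The scavengers of haemoglobin and haem were less uniform. Hp, which encodes haptoglobin, was at 18.2, 35.7 and 56.1 CPM in the 8 libraries and at 4.08, 7.77 and 11.4 CPM in the 13, a ratio of 4.6. Hpx, which encodes hemopexin, had a ratio of 6.36. Mup3, a major urinary protein that binds pheromones, had a ratio of 6.53. Mup20, another of that family, was counted between 12 and 30 times in each of the 8 libraries and between 0 and 6 times in each of the 13, so no fold is given for it.

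Vtn, which encodes the adhesion protein vitronectin and is named here after its values were seen, had the lowest ratio of the 42. Its level was between 21.8 and 50.5 CPM (median 38.3) in the 8 libraries and between 11.3 and 15.7 CPM (median 13.2) in the 13, a ratio of 2.91. The 13 libraries were close to each other in this transcript, with a standard deviation of 1.24 CPM around a mean of 13.6 CPM. C3, which encodes the central component of complement, was next, with 86.2, 162 and 217 CPM against 34.9, 40.6 and 49.3 CPM and a ratio of 3.98. Hp and Trf followed, and none of the 4 overlapped between the 2 sets of libraries.

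The 8 apolipoproteins, which carry lipids in plasma, had ratios from 5.56 to 7.37. Apoa1, the main protein of high-density lipoprotein, was at 35.1, 91.5 and 131 CPM in the 8 libraries and at 8.57, 12.4 and 21.6 CPM in the 13. Apoa2, another protein of high-density lipoprotein, was at 31.1, 70.8 and 86.8 CPM against 8.88, 12.7 and 16.8 CPM. Apob, the structural protein of low-density lipoprotein, had a ratio of 7.25, and Apoh, Apoc1, Apoc3, Apoc4 and Apoa5 lay between 5.63 and 6.80. The 6 genes of clotting, fibrinolysis and kinins were the most uniform role. Fga, Fgb and Fgg (fibrinogen chains), F2 (prothrombin), Plg (plasminogen) and Kng1 (kininogen) had ratios from 5.58 to 6.28.

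The 6 intracellular proteins had ratios from 5.00 to 7.31. Cyp2e1, a cytochrome P450 that oxidises ethanol, was at 38.2, 85.3 and 117 CPM in the 8 libraries and at 9.83, 17.1 and 27.4 CPM in the 13. Tat, which starts the breakdown of tyrosine, was at 9.67, 24.1 and 51.8 CPM against 1.27, 3.30 and 5.30 CPM. Cps1 (the entry enzyme of the urea cycle), Hpd (a later enzyme of tyrosine breakdown), Fabp1 (the liver fatty acid binding protein) and Cyp3a11 (a drug-metabolising P450) had ratios of 6.58, 6.34, 5.53 and 6.44. Transcripts of intracellular and of secreted proteins were higher in the same 8 libraries, which follows from how the genes were selected.

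Per kb of annotated exon, Alb had the highest level in both sets of libraries, with a median of 154 CPM per kb in the 8 and 23.1 CPM per kb in the 13. Apoa1 was next in the 8 libraries, at 53.6 CPM per kb, followed by Trf at 31.8, C3 at 31.2 and Cyp2e1 at 30.2 CPM per kb. In the 13 libraries C3 came before Apoa1, at 7.84 against 7.28 CPM per kb, and Trf followed at 6.40 CPM per kb. These lengths are those of all annotated exons of a gene, which may be longer than the transcript that was read.

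To see how far the members kept fixed proportions, each was expressed as a percent of Alb in the same library. The median percent in the 13 libraries divided by that in the 8 had a median of 1.11 over the 41 genes other than Alb, and 34 of them lay between 0.8 and 1.25. Vtn was at 4.84% of Alb in the 8 libraries and 11.6% in the 13, and C3 at 20.1% and 37.2%. Cyp2e1 was at 10.3% and 14.8%, Trf at 22.5% and 30.4%, Apoa2 at 8.40% and 10.8%, and Hp at 4.54% and 5.83%. These 6 were the genes above 1.25, and Mup20, with a median of 2 counts in the 13 libraries, was the 1 gene under 0.8. Within each set of libraries the percent of Alb varied with a median coefficient of variation of 18.4% in the 8 and 16.9% in the 13.

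**Figure D3:**
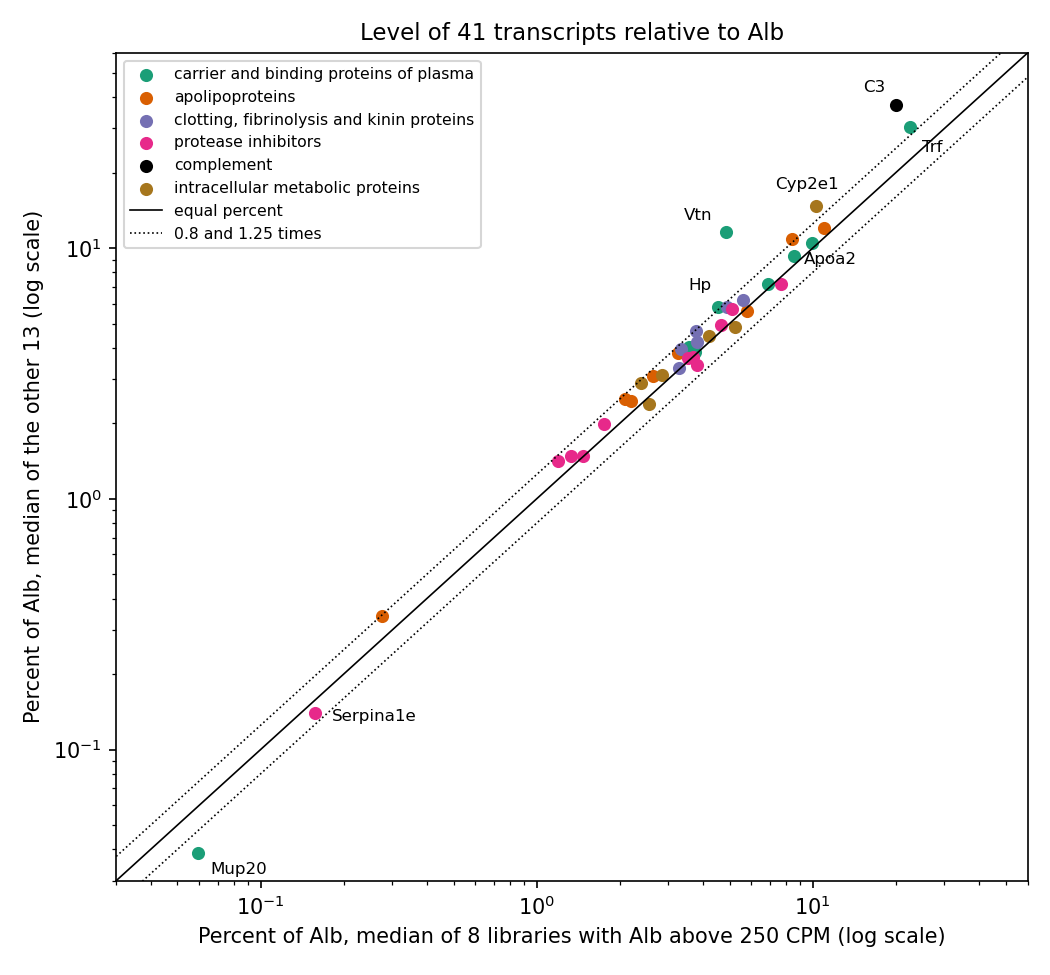
Level of 41 transcripts as a percent of Alb, as the median of the 8 libraries above 250 CPM of Alb (horizontal axis) against the median of the other 13 (vertical axis), both on log scales and coloured by role. Most points lie between the dotted lines at 0.8 and 1.25 times equality, and Vtn and C3 lie farthest above them.

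The 7 members Hp, Hpx, Fga, Fgb, Fgg, Itih3 and C3 were taken as acute-phase genes after their values were seen, so their likeness to each other is a description. Each was expressed as a percent of Alb and divided by the median of its own set of libraries. The median over the 7 was 1.51 in Active replicate 1 and 1.37 in Activity Reduction replicate 2 among the 8 libraries, and 1.40 in Inactive replicate 3 and 1.35 in Inactive replicate 5 among the 13. In these 4 libraries, and in Activity Reduction replicate 5 with a value of 1.17, all 7 transcripts were above the median of their set. The lowest values were 0.776 in Inactive replicate 2 and 0.831 in Inactive replicate 1. Libraries with high values were found in all 3 groups. Each set was divided by its own median, so values above 1 in both sets follow from the scaling. Levels are not compared between the 2 sets by these values.

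Hp ranged within the 13 libraries from 3.15% of Alb in Inactive replicate 2 to 10.1% in Inactive replicate 7. Itih3, which encodes a heavy chain that is joined to hyaluronan, was at 2.48% of Alb in Active replicate 1 and between 0.945 and 1.77% in the other 7 libraries of that set. In the 13 libraries it was at 2.52% in Inactive replicate 3 and between 1.03 and 2.13% elsewhere.

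Acute-phase genes that are not among the 42 were set beside them. The level of Saa1, a serum amyloid A, was 0.411 and 0.356% of Alb in Active replicates 1 and 2, 0.177% in Activity Reduction replicate 2 and 0.671 and 0.849% in Inactive replicates 3 and 5, and also 0.672 and 0.726% in Activity Reduction replicates 4 and 5, against 0.0258% in Inactive replicate 2 and 0.0354% in Inactive replicate 1. Saa1 was as low as 0.0335 CPM among the 13 libraries, so its lowest values rest on few reads. Over Saa1, Saa2, Orm1, Itih4 and Hamp the median relative to the set was 2.10 in Active replicate 1, 1.48 in Activity Reduction replicate 2, 1.58 in Inactive replicate 3 and 1.40 in Inactive replicate 5. The other 34 members were at 1.28, 1.15, 1.13 and 1.11 in the same libraries. Because Alb is the divisor, a lower Alb and higher levels of the other transcripts cannot be told apart in these ratios.

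**Figure D4:**
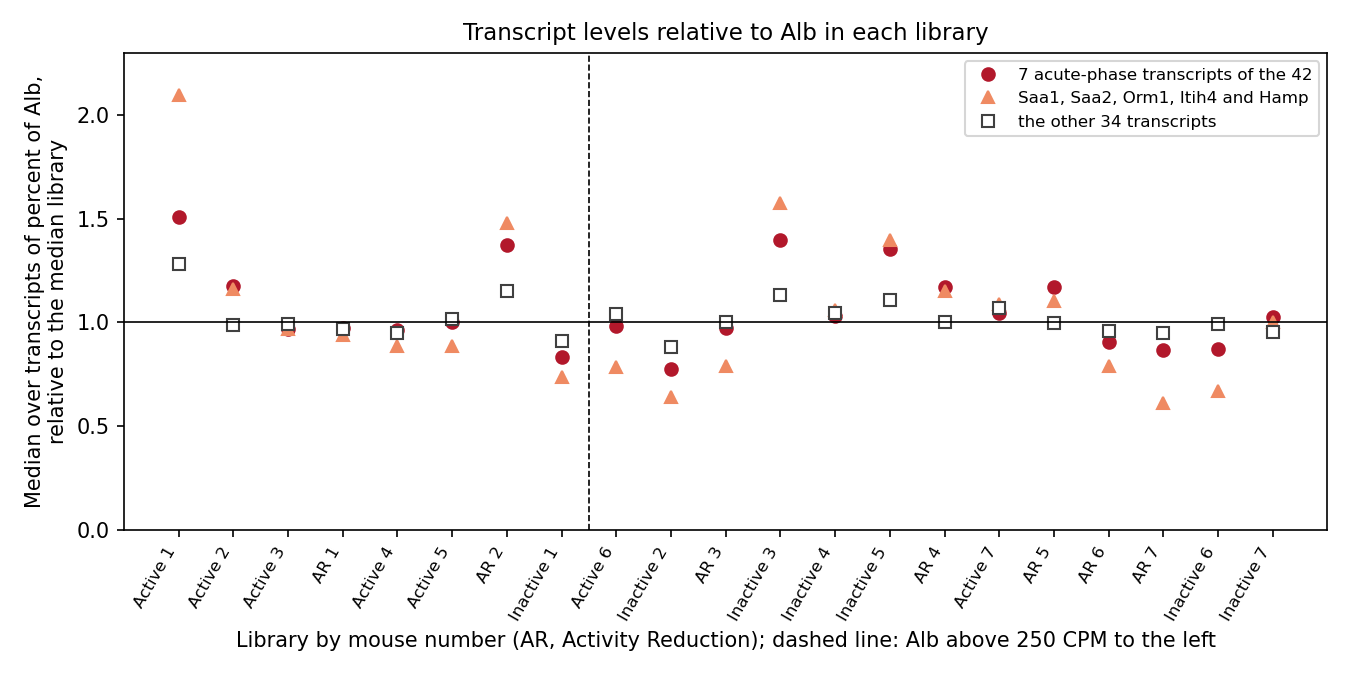
Median over transcripts of the percent of Alb, divided by the median of the same set of libraries, for 7 acute-phase members (filled circles), 5 acute-phase genes outside the 42 (triangles) and the other 34 members (open squares), by library in the order of mouse numbers. The acute-phase values reach 1.51 and 2.10 in Active replicate 1, where the other members are at 1.28.

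Serpina1e was the exception among the 42. The 5 Serpina1 genes encode copies of alpha-1-antitrypsin, the inhibitor of neutrophil elastase, and they differ between each other in the loop that meets the protease. Their coding sequences, of 1239 bases each, were between 96.3 and 98.5% identical. Counts of Serpina1a to Serpina1e, and of Mup20, are therefore uncertain, since reads may fit more than 1 copy. The stretch of 60 bases of the last coding exon that differs most between them is shown because it can tell these 5 apart. Each copy is matched over at least 50% of its transcript by 6 genes, and the closest to Serpina1c and Serpina1e is Gm61267. The stretch was not compared with genes beyond the 5. Sequences are 5′ to 3′ on the minus strand of the chromosome (GRCm39), at chr12:103820016-103820075, chr12:103694583-103694642, chr12:103861353-103861412, chr12:103730021-103730080 and chr12:103913359-103913418 for Serpina1a to Serpina1e. Capitals mark the 18 positions that are not the same in all 5.
Serpina1a: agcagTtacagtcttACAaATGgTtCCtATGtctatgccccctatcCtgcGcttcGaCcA
Serpina1b: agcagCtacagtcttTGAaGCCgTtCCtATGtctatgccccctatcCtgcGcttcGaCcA
Serpina1c: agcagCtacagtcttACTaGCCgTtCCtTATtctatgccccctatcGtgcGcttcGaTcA
Serpina1d: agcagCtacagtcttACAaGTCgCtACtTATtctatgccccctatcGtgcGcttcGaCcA
Serpina1e: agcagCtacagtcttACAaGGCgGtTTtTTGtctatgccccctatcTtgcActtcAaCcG
Of the counts on the 5 genes, Serpina1b held 41.1 to 48.2% in every library, Serpina1c 18.3 to 27.6%, Serpina1d 18.7 to 27.1% and Serpina1a 6.93 to 12.4%. Serpina1e held 0.354 to 6.00%, a 17.0-fold range, where the others varied at most 1.79-fold. Serpina1b, the copy with the most counts, was at 26.4, 63.9 and 83.6 CPM in the 8 libraries and 4.61, 8.56 and 11.8 CPM in the 13, with a ratio of 7.46.

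Serpina1e was at 0.826, 1.51, 4.02, 1.79, 1.06, 0.682 and 0.292 CPM in Active replicates 1 to 7. In the Activity Reduction group it was at 0.593, 3.12, 0.646, 0.203, 0.108, 0.245 and 0.482 CPM. In the Inactive group it was at 1.08, 0.1004, 0.0812, 0.328, 0.0753, 0.113 and 0.0724 CPM. The highest values were in Active replicate 3, with 187 counts, and Activity Reduction replicate 2, with 162 counts. Active replicate 6 and Activity Reduction replicate 3, both among the 13 libraries, were above the lowest of the 8, so the 2 sets overlapped for this transcript alone. As a percent of Alb it varied with a coefficient of variation of 74.6% in the 8 libraries and 106% in the 13. Of the 13 libraries, 6 held 6 or fewer counts, so the lowest values rest on few reads.

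Serpina3k (a relative of antichymotrypsin), Serpinc1 (antithrombin), Ambp (the precursor of bikunin and alpha-1-microglobulin) and the heavy chains Itih1, Itih2 and Itih3 had ratios of 7.42, 6.76, 5.94, 5.83, 5.94 and 6.96. Over 10% of the annotated exon of 6 members is overlapped by a gene on the other strand, namely Serpinc1 (34.4%), Apoa2 (25.9%), Serpina1c (21.2%), Apoa5 (19.0%), Serpina1b (13.3%) and Plg (11.2%). Without a stated strand setting, reads of the 2 genes cannot be told apart there.

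Between the Active and Inactive groups, no member was differentially expressed. The test was edgeR's quasi-likelihood test over 16129 genes with Benjamini-Hochberg adjustment, and a transcript was called when its adjusted p was under 0.05 and its log2 fold change over 0.25 in either direction. In this comparison 0 of 42 members and 0% of all genes were called. At an unadjusted p under 0.05, 8 of the 42 members were higher in the Active group, where 6.18% of all genes were, and 0 were lower. DESeq2 on the 21 libraries called 0 members and 63 of 28675 genes. All 42 log2 fold changes were above 0, with a median of 1.17 and a range of 0.72 to 2.46, where the median of all genes was 0.01. Members move together, so they are not independent observations.

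Alb had a mean of 555 ± 358 CPM (SD, n = 7) in the Active group and 265 ± 393 CPM (SD, n = 7) in the Inactive group. The 2 ranges overlapped almost wholly, through single libraries. Of 7 Active libraries, 5 were at 365 to 976 CPM and 2 at 93.8 and 118 CPM. Of 7 Inactive libraries, 6 were at 93.7 to 136 CPM and replicate 1 was at 1155 CPM. The log2 fold change of Alb was 1.07 ± 0.66 (SE), with an adjusted p of 0.573 in edgeR's quasi-likelihood test. An exact permutation test of its CPM between the same groups, two-sided, gave p = 0.197, or 0.295 adjusted over 3 pairs of groups, and the smallest p that 7 against 7 libraries allow is 0.000583. The 8 members with an unadjusted p under 0.05 were Hpx, Hp, Mup3, Serpina1e, Serpina3k, Itih3, C3 and Fabp1. Of these, Serpina1e had the largest log2 fold change, 2.46 ± 0.74 (SE), with an adjusted p of 0.258 from edgeR. Fabp1 followed in p, with 1.37 ± 0.57 (SE) and an adjusted p of 0.407 from the same edgeR test. DESeq2 fitted on only the 14 libraries compared called Serpina1e, with an adjusted p of 0.0472, and no other member. That fit called 76 of 27684 genes.

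The values turned on 1 Inactive library. Without Inactive replicate 1, which had 1155 CPM of Alb, the median log2 fold change of the 42 members between Active and Inactive was 2.15. All 42 were then higher at an unadjusted p under 0.05 (edgeR), where 1492 of 16258 genes were. Yet 0 were called, and the smallest adjusted p of a member was 0.0562 in the same edgeR test. Leaving out Active replicate 6 or 7, the 2 Active libraries under 250 CPM, gave 31 and 28 members at an unadjusted p under 0.05. All of these were higher, where 1174 of 16282 and 1068 of 16253 genes were. When only the 13 libraries under 250 CPM were compared, an alternative added after the data were seen, the median log2 fold change was -0.10 over 41 members tested. Since Alb is a member, choosing libraries by it also removes differences in the members. Within those 13, the summed level of the 42 transcripts was 352 to 482 CPM in 6 Inactive libraries, 338 to 441 CPM in 2 Active libraries and 282 to 534 CPM in 5 Activity Reduction libraries, and the 3 ranges overlapped.

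Serpina1e was the 1 of 41 members at an unadjusted p under 0.05 between Active and Inactive in the 13 libraries, where 3.02% of 17175 genes were higher at that level. Its log2 fold change there was 1.93 ± 0.65 (SE), with an unadjusted p of 0.0088 and an adjusted p of 0.808 in edgeR's test. It rested on 2 Active libraries, with 33 and 14 counts, against Inactive libraries with 4 to 17 counts.

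Between the Activity Reduction and Inactive groups, 0 of 42 members were called by edgeR or by DESeq2. Over all genes, edgeR called 0.0124% and DESeq2 on 21 libraries called 20 of 28675. The log2 fold changes had a median of 0.20, from -0.36 to 1.60, with 40 above 0 and 2 below. Serpina1e was the 1 member at an unadjusted p under 0.05, where 4.19% of all genes were higher at that level. Its log2 fold change was 1.60 ± 0.74 (SE), with an adjusted p of 0.640 in edgeR's quasi-likelihood test. Alb had a mean of 283 ± 280 CPM (SD, n = 7) in the Activity Reduction group, and an exact permutation test against the Inactive group gave p = 0.825. Without Inactive replicate 1, 33 members were higher at an unadjusted p under 0.05, where 834 of 16258 genes were. The median log2 fold change of the members was then 1.22. Without Activity Reduction replicate 1 or 2 it turned to -0.11 or -0.14, so its direction was set by single libraries. In the 13 libraries under 250 CPM, 3 of 41 members, Serpina1e, Serpina3k and Fabp1, were higher at an unadjusted p under 0.05, where 4.09% of 17175 genes were, with log2 fold changes of 1.43, 0.54 and 0.43 and adjusted p of 0.487, 0.461 and 0.618 from edgeR.

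Between the Activity Reduction and Active groups, 0 of 42 members and 0% of all genes were called by edgeR. DESeq2 on 21 libraries called 0 members and 116 of 28675 genes. All 42 log2 fold changes were below 0, with a median of -0.93 and a range of -1.09 to -0.60. C3 was the 1 member at an unadjusted p under 0.05, where 6.44% of all genes were lower at that level. Its log2 fold change was -0.94 ± 0.45 (SE), with an adjusted p of 0.371 in edgeR's quasi-likelihood test. For Alb an exact permutation test gave p = 0.132, or 0.295 after adjustment. The 3 comparisons share libraries, so the positive values against the Inactive group and the negative values here are not independent. Over the libraries with Alb under 250 CPM the median was 0.18.

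**Figure D5:**
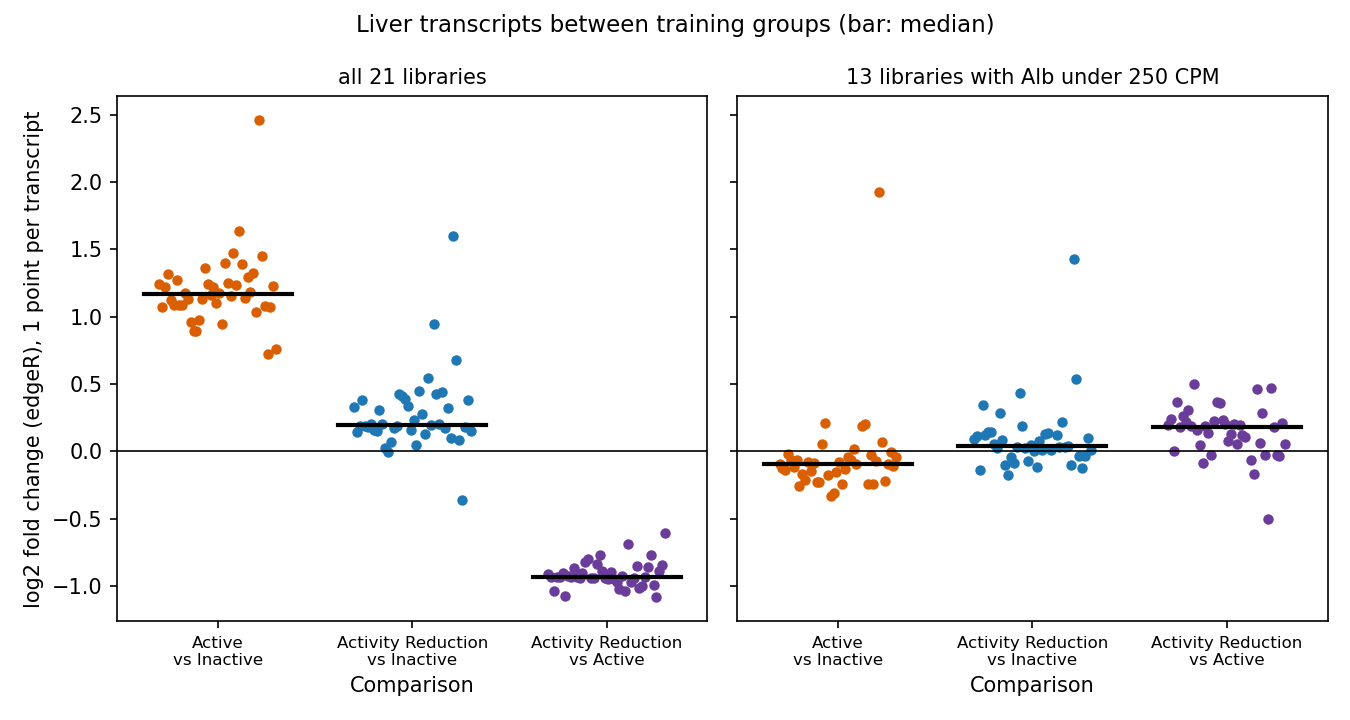
Log2 fold change of each member (1 point each, edgeR) in the 3 comparisons, with a bar at the median, in all 21 libraries (left) and in the 13 with Alb under 250 CPM (right). The medians of 1.17, 0.20 and -0.93 in all libraries are -0.10, 0.04 and 0.18 in the 13, and the single high points are Serpina1e.

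Other hepatocyte genes were read in the same way. The 6 lists of hepatocyte genes outside the 42 held 98 genes, of which 96 had a mean of at least 0.1 CPM. Of these, 89 had a median at least 2-fold higher in the 8 libraries, where 3.62% of all 17290 genes at that level did. For 84 the 2 sets did not overlap, where this held for 2.48% of those genes. The median ratio of the 96 was 6.15. These lists too were chosen with earlier results of these data known, so the counts are a description. Pzp, a broad protease inhibitor of plasma, was at 42.4 CPM in the 8 libraries and 7.24 CPM in the 13, and Hnf4a, a liver transcription factor, at 7.19 and 1.204 CPM. Ass1, an enzyme of the urea cycle, was at 47.6 and 8.93 CPM. Cyp27a1, a mitochondrial enzyme of bile acid synthesis, was at 57.0 and 57.7 CPM, and Khk, the kinase of fructose, at 26.9 and 20.5 CPM. Both are thus genes of these lists that did not follow Alb. Of 95 hepatocyte genes that could be tested, 0 were called by edgeR in any comparison, and 12, 1 and 0 were higher and 0, 0 and 2 lower at an unadjusted p under 0.05 in the 3 comparisons as ordered above. Over all genes, 6.18% and 4.19% were higher at that level in the first 2 comparisons, and 6.44% were lower in the last.

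Among the transcripts most like Alb over the 21 libraries, outside the 42 and with a mean of at least 0.5 CPM, were Ces1c, Mat1a, Uox, Pzp, Abcc2, Dpys, Cyp2j5 and 1300017J02Rik. They were ordered by the correlation of log2(CPM + 0.1), which is dominated by the difference between the 2 sets of libraries. Ces1c, a carboxylesterase of plasma, was at 38.5 CPM in the 8 and 5.69 CPM in the 13. The ratios of these genes lay between 5.85 and 7.17.

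Markers of other liver cells were low, and some moved with the members. Of the Kupffer cell genes, 3 of 4 at a mean of 0.1 CPM or more were at least 2-fold higher in the 8 libraries, where 3.62% of all genes were. Clec4f was at 1.31 and 0.224 CPM. The list summed to between 2.13 and 7.45 CPM in the 8 libraries and between 0.469 and 1.79 CPM in the 13, and Marco was at 0 in 9 libraries. For sinusoidal endothelium 3 of 5 genes were at least 2-fold higher, for stellate cells 2 of 5 and for bile duct 0 of 2. Stab2 was at 10.5 and 10.0 CPM. Of the genes at a mean of 0.1 CPM or more, 0 of 2 for heart, 0 of 6 for brain, 0 of 7 for adipocytes, 0 of 5 for red blood cells, 0 of 10 for muscle fibres and 1 of 2 for small intestine, Fabp2, were at least 2-fold higher, and 4 of the brain genes were at least 2-fold lower. The lists for acinar pancreas and lung held 1 such gene each, which was not, and that for kidney held 0, so these 3 lists could show little. For the brain genes that were lower, the matching share of all genes is not given. The part of other tissue in the members' levels was not tested.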

How the data were processed

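Poly(A) RNA of the gastrocnemius of 21 mice was sequenced. Per the labels and the study's methods, reads were trimmed (fastp), mapped to GRCm39 (STAR) and assigned to genes (featureCounts) by the authors, and the deposited values are raw read counts per gene. Tool versions and the strand setting are not given in the sources used here. A file that by its title should give normalized counts was equal to the raw counts in all 857913 values and was not used.

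Counts were scaled to the library total (CPM) for levels. Groups were compared in 1 edgeR 4.0.16 quasi-likelihood model of the 21 libraries (R 4.3.3, TMM, filterByExpr, 16129 genes), with Benjamini-Hochberg adjustment over all genes, and DESeq2 1.42.0 was an alternative. Exact permutation tests of Alb used SciPy 1.17.1. Gene positions, lengths and near copies came from GENCODE M39. The method was tested on simulated data for the Active and Inactive groups with 15930 genes. There 73.1% of 67 genes changed by 1.5-fold and 100% of those changed by 2-fold or 4-fold were recovered, with 10 false calls. Recovery of genes that vary within a group and move together as the members do was not tested. Alb, for example, had 265 ± 393 CPM (SD, n = 7) in the Inactive group. The percents are therefore not given for the members.

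The members and all gene lists were chosen with earlier results of these data known. Levels in detail were given for the 10 members with the highest mean CPM and the 6 with the lowest likeness to Alb, where Cyp2e1 is in both. Other members were given by ratios, and Vtn, the acute-phase genes and the printed promoters were chosen after their values were seen. Each library is 1 mouse, and no source says that mice were paired between groups. Alternatives were DESeq2, its size factors, no filter on low counts, a replicate block, the Alb division as a covariate, other levels of division and leaving out each library. Some genes that the naming rule for likeness to Alb selects are not reported here.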

Additional observations from a re-analysis of the deposited data

Results flagged for a closer look

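Within the 3 groups of 7, the highest or lowest library was set against the others by Dixon's criterion, in which the gap to the nearest library is divided by the range of the group (critical value 0.568). Chance alone passes about 1 in 20 groups, a rate that does not apply to these members, which were selected in these data for standing high together in some libraries. Of 48 group values tested, for the summed members and 15 named members, 18 passed, and 16 of them were Inactive replicate 1 as the highest library of its group.

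In that library the gap was 0.956 of the range for the summed level of the 42 transcripts (3309 CPM) and 0.96 for Alb (1155 CPM). Among the other carriers it was 0.951 for Trf, 0.963 for Ahsg, 0.94 for Gc and 0.909 for Ttr. It was 0.924 for Apoa1, 0.933 for Apoa2, 0.945 for Serpina1b and 0.914 for C3. For the enzymes Cyp2e1 and Tat it was 0.861 and 0.92. For Itih3 and Mup20 it was 0.816 in both, for Hp 0.799 and for Serpina1e 0.746. The gaps of 1 library for transcripts that move together are not separate observations.

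Serpina1e passed in the other groups as well. Active replicate 3, at 4.02 CPM, stood above its group with a gap of 0.598, and Activity Reduction replicate 2, at 3.12 CPM, stood above its group with a gap of 0.822. No other named member passed in those groups.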

How the results depend on the processing

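No member was called by edgeR in any of the 3 comparisons under any alternative, including each library left out (0 to 0 in all 3), and DESeq2 on the 14 libraries compared called 1, Serpina1e, between Active and Inactive. Over all genes, edgeR called 0, 2 and 0 in Active against Inactive, Activity Reduction against Inactive and Activity Reduction against Active, DESeq2 on 21 libraries 63, 20 and 116, and DESeq2 on the 14 libraries compared 76, 42 and 139. The edgeR counts were 0, 0 and 1 with DESeq2's size factors, 0, 1 and 0 with the Alb division as a covariate, 0, 4 and 0 with the block described below, and 0, 0 and 0 with only the libraries under 250 CPM of Alb, and 0 to 1, 0 to 6 and 0 to 9 with each library left out. Members at an unadjusted p under 0.05 numbered 8, 1 and 1. Between Active and Inactive they numbered 23 with no filter on low counts, all higher, where 1632 of 28675 genes were. They numbered 1 with the Alb division as a covariate, 1 with only the libraries under 250 CPM of Alb, and 2 to 42 with each library left out. Between Activity Reduction and Inactive they were 3 with only those libraries and 0 to 33 with each left out. Between Activity Reduction and Active they were 0 with the covariate, 0 with only those libraries and 0 to 18 with each left out.

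The median log2 fold change of the members between Active and Inactive was -0.13 with the covariate and -0.10 with only the libraries under 250 CPM, a choice added after the data were seen. With the covariate it was -0.07 between Activity Reduction and Inactive, from 0.20, and 0.07 between Activity Reduction and Active, from -0.93. With each library left out it was 0.99 to 2.15, between Activity Reduction and Inactive -0.14 to 1.22, and between Activity Reduction and Active -1.30 to -0.76. The covariate is taken from Alb, a member, so it removes part of what is compared. For Alb the log2 ratio of group means with each library left out was 0.87 to 2.25, -0.39 to 1.28 and -1.46 to -0.77 in the same order. All 42 members stayed at least 2-fold higher across the division with each library left out and with the division at 150 or 400 CPM. The division at 150 CPM left 9 libraries above it and that at 400 CPM left 7, where 250 CPM left 8. The members were selected for following Alb, so this count follows from the selection.

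Replicate numbers are shared by the groups, so the deviations of libraries from their group mean were correlated. Over 21 same-numbered pairs r was -0.22 to 0.47, with 7 pairs over 0.1. The median r was 0.0122, against -0.00327 in other pairs, and 3 of 21 libraries were closest to their own number. This check cannot show whether mice were paired, and the main model used no pairing. With the replicate block, members at an unadjusted p under 0.05 numbered 42, 0 and 23 in the 3 comparisons, and 0 were called. The 42 were higher, where 1307 of 16129 genes were, and the 23 were lower, where 1266 of 16129 were. Depth limits Mup20, Serpina1e and Apoc4, whose counts in the 13 libraries were at most 6, 36 and 31. The cause of the changes between alternatives was not tested.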

Other observations

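Of the 6 genes of the brain list, 4 had a median at least 2-fold lower in the 8 libraries above 250 CPM of Alb than in the 13 under it, opposite to the members. Snap25, a synaptic vesicle fusion protein, was at 0.795 and 1.79 CPM, Slc17a7, a glutamate transporter, at 0.441 and 1.14 CPM, Gfap, an astrocyte filament, at 0.231 and 0.579 CPM, and Gad1, an enzyme of GABA synthesis, at 0.0820 and 0.284 CPM. The 2 sets of libraries overlapped for each of these genes, and their low levels rest on few reads in several libraries. Gad1, Snap25 and Gfap were at 0 in 5, 3 and 2 libraries. The share of all genes at least 2-fold lower is not given, so whether this count is unusual was not tested. Camk2a, which muscle also expresses, was at 530 and 503 CPM.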
